A study of Mus musculus with 7 samples.

Results

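The genes described here are 37 molecular chaperones and their partners, matched by symbol among the 55364 genes of the count table: 16 cytosolic heat shock genes, 3 mitochondrial genes, 8 subunits of the cytosolic chaperonin and 10 chaperones and folding enzymes of the endoplasmic reticulum (ER). All 37 were found. Their transcripts were counted by 3′ UTR RNA-seq in T cells with the surface phenotype CD45+CD3+CD4+, sorted out of lung tumours that had grown in C57BL/6 mice aged over 8 weeks (an orthotopic model). All mice carried the I-AbF/F genotype, a loxP-flanked allele of an MHC class II chain, and all had tamoxifen. That genotype alone made up the Control group (5 libraries), while mice of the Cre group (2 libraries) also carried Col1a2-cre (I-AbF/FCol1a2-cre). The Col1a2 promoter is known for its activity in fibroblasts, so the deletion was aimed at fibroblasts of the tumour and not at the sorted cells. The comparison asks whether chaperone transcripts in tumour CD4 T cells differ when fibroblasts lack this MHC class II chain. The series names the libraries biological replicates.

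Chaperones bind unfolded proteins and use ATP or stable binding to keep them from aggregating until they fold. Hsp70 proteins are loaded with clients by J proteins and emptied by exchange factors, Hsp90 proteins finish the folding of kinases and receptors, and the ring-shaped chaperonin CCT (also TRiC) folds actin and tubulin inside its cavity. Heat shock factor 1 (Hsf1) binds heat shock elements in the promoters of cytosolic chaperone genes when unfolded protein accumulates, and the unfolded protein response acts on ER chaperone genes through ER stress elements. Activated T cells are known to raise chaperone synthesis as they grow, and tissue dissociation is known to raise inducible Hsp70.

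The 2 kinds of promoter element are shown first because they were held by different groups of these genes. RefSeq promoter windows of 300 bases (250 before to 50 after the start site, GRCm38.p6) were matched for 31 of the 37 genes. Hspa9, Hsp90ab1, Hspa8, Cct4, Hsf1 and Hsp90aa1 were not matched. The ER stress element, spelled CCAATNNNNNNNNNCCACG and searched on both strands, was held by 6 of the 10 ER genes and by none of the other 21 genes matched, against 0.137% of 27025 genes in the same table. The windows read as follows on the strand of the gene, with the element in capitals, and Hsp90b1, the ER form of Hsp90, held it at 2 places.
Hspa5 (chr2:34772021-34772047, + strand): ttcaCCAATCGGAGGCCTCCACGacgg
Hsp90b1 (chr10:86705529-86705555, - strand): agtgCGTGGTGAGGCACGATTGGtgag
Hsp90b1 (chr10:86705634-86705660, - strand): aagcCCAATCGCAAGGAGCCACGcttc
Canx (chr11:50325796-50325822, - strand): ttgaCCAATCACCACGCTCCACGaaga
Dnajc3 (chr14:118937823-118937849, + strand): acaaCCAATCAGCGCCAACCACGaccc
Pdia6 (chr12:17266487-17266513, + strand): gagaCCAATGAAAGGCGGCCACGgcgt
Calr (chr8:84847071-84847097, - strand): aacgCGTGGTCGACCCTCATTGGccca
In Calr and at the first place in Hsp90b1 the element lay on the strand opposite to the gene, where it reads CGTGG, 9 free bases and ATTGG. Dnajb9, Dnajb11, Pdia3 and Pdia4 held none in the window. ER stress elements are known from ER chaperone genes, so these matches describe the genes and are not a test. The unfolded protein response element TGACGTGG, searched on both strands, was in none of the 31 windows and in 0.714% of all genes.

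A heat shock element of 3 units, spelled GAANNTTCNNGAA or TTCNNGAANNTTC and searched on both strands, was held by Dnajb6, Hspd1, Hspe1 and Hsph1, which is 4 of the 31 genes matched, against 0.662% of all genes. Hspd1 and Hspe1 are neighbours read in opposite directions, and both windows hold the same element between them, so it counts 1 time as sequence. The element is in capitals below.
Hspe1 (chr1:55088052-55088078, + strand): cggtccgTTCTAGAACCTTCcggaagg
Hspd1 (chr1:55088052-55088078, - strand): ccttccgGAAGGTTCTAGAAcggaccg
Dnajb6 (chr5:29735845-29735871, + strand): gctccgaGAATCTTCCGGAAcgctaga
Hsph1 (chr5:149636281-149636307, - strand): ctgcagaTTCTGGAAAGTTCtcctcag
The shorter form of 2 units (GAANNTTC or TTCNNGAA), which every 3-unit element contains, was in 11 of 31 genes against 17.0% of all genes, and those 11 comprised 6 cytosolic, 2 mitochondrial, 3 chaperonin and 0 ER genes. The inducible Hsp70 genes Hspa1a and Hspa1b, which lie next to each other on chromosome 17, held the same 2-unit element 104 bases before the start site.
Hspa1a (chr17:34972243-34972269, - strand): aaactgctgGAAGATTCctggccccaa
Hspa1b (chr17:34959325-34959351, - strand): aaactgctgGAAGATTCctggccccaa
Heat shock elements are known from chaperone promoters, so these shares too are a description and not a test. A match is a run of letters in the reference and not a measured binding site.

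The libraries held between 1484655 and 1724346 counts in Control and 1929899 and 1449739 counts in Cre replicates 1 and 2. Scaled down to 1449739 counts each, Control replicate 1 held 14603 genes, the remaining Control libraries 9983 to 10723 and the Cre libraries 8759 and 7896. Of the 9854 genes that entered the test, 25.0% had no count in Cre replicate 1 and 33.6% had none in Cre replicate 2. The share was 1.14% in Control replicate 1 and 12.3% to 16.1% in the remaining Control libraries. The 10 T cell markers (Cd3e, Cd4, Trac and others) were detected in every library, with a summed level of 3728 to 5861 CPM (a gene's counts scaled to a common library total) across Control and 5633 and 4449 CPM across Cre. Summed markers of fibroblasts were 189.9 to 793 CPM across Control and 345 and 57.9 CPM across Cre, of CD8 T and NK cells 65.8 to 220.2 against 51.8 and 2.07 CPM, of myeloid cells 13.9 to 55.3 against 2.07 and 4.83 CPM, and of B cells 0.614 to 14.8 against 1.04 and 0.690 CPM. Ms4a1, Jchain, Adgre1, C1qc, Pdgfrb, Krt8, Krt18 and Krt19 were at 0 in all 7 libraries. Xist had 340, 16, 76, 266 and 476 counts across Control (replicate order), with 1 and 86 across Cre. Y-linked Ddx3y had 1, 34, 141, 2 and 0 counts across Control, with 76 and 89 across Cre. Ddx3y was thus nearly absent where Xist was highest (Control replicates 1, 4 and 5), while both Cre libraries held it. Cre replicate 2 and Control replicates 2 and 3 held at least 16 counts of each transcript. The series describes the mice as matched for gender. The part of sex in the differences between the groups was not tested. In such bulk samples, fewer cells of a type and less RNA per cell cannot be told apart.

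No chaperone gene passed the test between Cre and Control. Of the 37 genes, 36 had enough counts for edgeR's quasi-likelihood test, and their Benjamini-Hochberg adjusted p-values, taken over all 9854 genes tested, ran from 0.399 to 0.998. Over the whole table the same test called 0 genes higher in Cre (0.0% of those tested) and 1 lower (0.0101%). DESeq2 called 35 genes higher (0.417% of 8394 with an adjusted p) and 607 lower (7.23%), again with no chaperone gene among them, and the smallest DESeq2 adjusted p of a chaperone was 0.0939, for Dnajb1. In the authors' deposited table, 0.211% of 18008 genes were higher and 3.64% lower at an FDR below 0.05, and the smallest FDR of a chaperone there was 0.151, also for Dnajb1. At an unadjusted edgeR p below 0.05, 1 chaperone was higher (Dnajb1) and 2 were lower (Cct4 and Dnaja1), beside 1.41% and 10.2% of all genes tested. The median log2 fold change was -0.15 over the 36 chaperones and -0.39 over all genes tested, and 52.8% of chaperones against 60.1% of all genes had a fitted value below 0. The all-gene median depends on the level of the genes, since it was -1.53 over the 4839 genes with a mean below 30 CPM over the libraries of both groups, among which only 1 chaperone (Dnajb11) stood. Over the 5015 genes at or above that mean it was -0.06, beside -0.10 over the 35 chaperones there, and 52.3% of those genes and 51.4% of those chaperones were fitted below 0.

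The 2 Cre libraries were far apart in some chaperone genes and close together in others. In Cre replicate 1, 11 of 36 chaperones lay above every Control library (17.5% of all genes tested) and 6 lay below (21.6%). In Cre replicate 2, 4 lay above (17.7%) and 16 lay below (26.5%). Among the 5015 genes with a mean of at least 30 CPM these all-gene shares were 19.6% above and 25.4% below in Cre replicate 1, and 23.1% above and 32.4% below in Cre replicate 2. Replicate 1 was the higher of the Cre pair in 24 of 36 chaperones, and in 14 of the 16 cytosolic ones, against 4647 of all 9854 genes. A gene without a count in Cre replicate 1 cannot be the higher there. Such genes made up 25.0% of all genes tested, while every tested chaperone had counts in that library. This comparison was not made among genes with a mean of at least 30 CPM, so the excess is not shown to be particular to chaperones. Hspa1a, Hspa8, Hspe1, Cct3 and Dnajc3 lay above every Control library in Cre replicate 1 and below every one in Cre replicate 2, which 4.24% of all genes did. Cct5 did the converse (3.85% of all genes). Dnajb1 and Hsf1 lay above the Control range in both Cre libraries (4.05% of all genes), and Cct4, Cct6a and Tcp1 lay below it in both (10.9%), so 5 of 36 chaperones were outside the Control range on the same side in both.

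**Figure D1:**
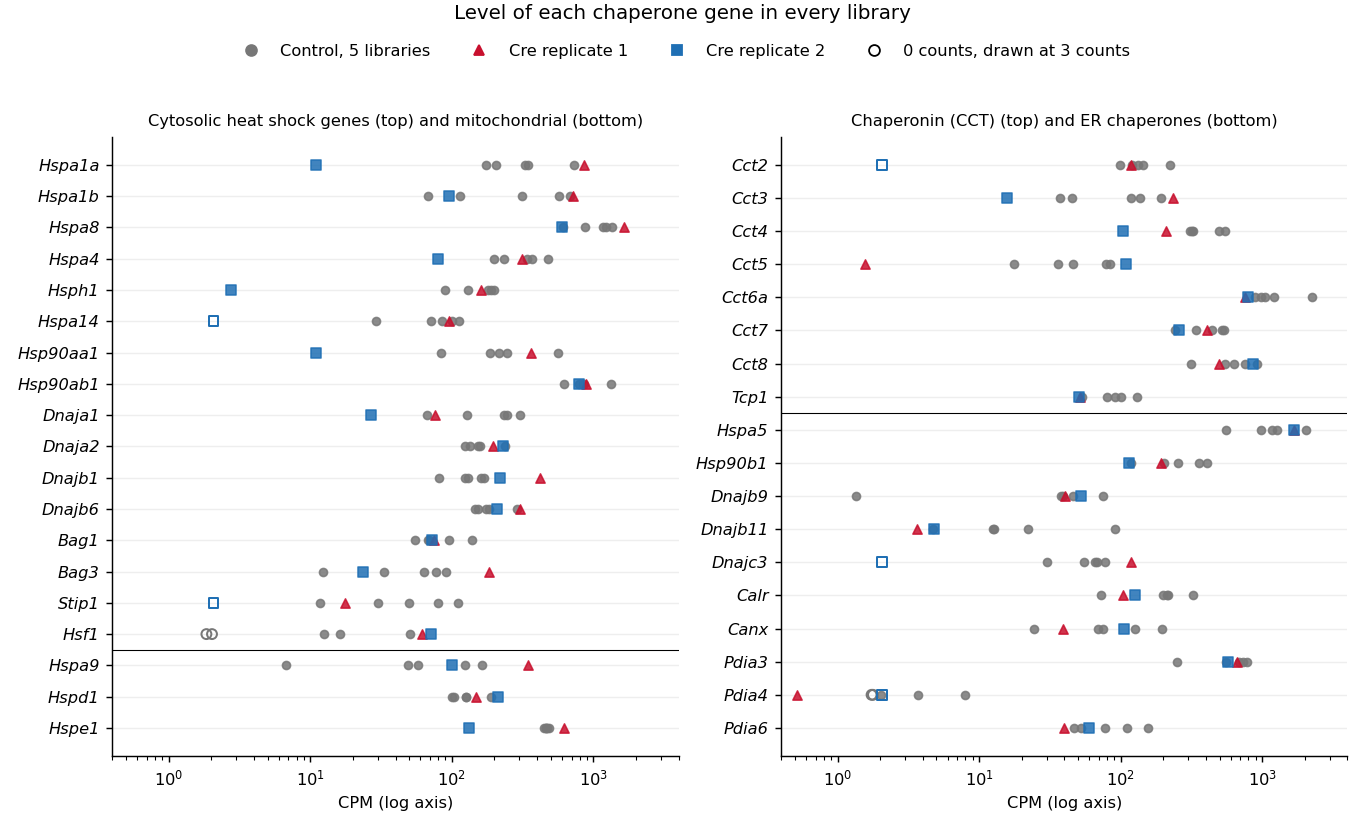
CPM of each of the 37 chaperone genes in every library (log axis), with 5 Control libraries as grey circles, Cre replicate 1 as red triangles and Cre replicate 2 as blue squares, and libraries with 0 counts drawn as open symbols at 3 counts. Cre replicate 2 lies far to the left of Control for Hspa1a, Hsph1, Hspa14, Hsp90aa1, Stip1, Cct2 and Dnajc3, while Cre replicate 1 does so for Cct5.

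The cytosolic Hsp70 genes were far apart in the 2 Cre libraries. Values are given below in replicate order, Control 1 to 5 and then Cre 1 and 2. Hspa1a, an Hsp70 that stress induces, stood at 330.4, 733, 343, 173 and 206 CPM in Control replicates 1 to 5 and 860.1 and 11.04 CPM in Cre replicates 1 and 2. Its neighbour Hspa1b, which encodes a nearly identical protein, stood at 315, 678, 568, 67.9 and 114 CPM across Control and 718 and 95.9 CPM across Cre. Both genes were thus spread widely among Control libraries too, with coefficients of variation of 62.4% and 77.4%, and both were highest in Control replicate 2 of that group. The fits gave a log2 fold change of 0.31 ± 0.98 (SE) for Hspa1a and 0.25 ± 0.85 for Hspa1b, with edgeR adjusted p-values of 0.944 and 0.953. With Cre replicate 2 as the only Cre library the value of Hspa1a was -4.99 (edgeR adjusted p = 0.0285), and with Cre replicate 1 alone it was 1.32 (edgeR adjusted p = 0.446). The last 250 bases of the annotated transcripts of this pair share no 50-base window, while over their whole length 60.3% of windows of Hspa1a recur in Hspa1b, so reads that reach further into the transcripts could belong to either gene.

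Hspa8, the constitutive Hsp70 that also strips clathrin from vesicles, stood at 1177, 1350.5, 1228, 869.9 and 614 CPM across Control and 1656 and 604 CPM across Cre. Replicate 1 of Cre was above and replicate 2 just below the whole Control range. Its fitted difference was 0.12 ± 0.44 on the log2 scale (edgeR adjusted p = 0.958), and 70.0% of the 50-base windows at its 3′ ends also occur in transcripts of other genes, Gm15459 foremost, so its level is uncertain. Hspa4 and Hsph1 are Hsp110 proteins, which exchange the nucleotide of Hsp70. Hspa4 had 341, 234, 479.7, 367 and 199.7 CPM across Control and 312 and 80.0 CPM across Cre. Hsph1, whose promoter window holds the 3-unit heat shock element after the start site and not before it, had 198, 181, 89.2, 130.5 and 189 CPM across Control and 161 and 2.76 CPM across Cre. Hspa14, an Hsp70 relative bound to ribosomes, had 29.1, 100.4, 71.3, 113 and 85.4 CPM across Control and 95.9 and 0 CPM across Cre. For all 3 genes Cre replicate 1 lay inside the Control range and Cre replicate 2 below it. The 0 counts of Hspa14 there make it at least 38.5-fold lower than the Control mean (3 counts as the limit in that library). Such fold limits, here and below, take in counting error alone. With Cre replicate 2 as the only Cre library, edgeR called Hspa1a, Hsph1, Hspa14 and Cct2 lower, which is 4 of 37 chaperones beside 1.74% of 11613 genes called lower and 0.146% called higher in that fit. That single library is there assumed to vary like the Control libraries. The all-gene shares of that fit were not worked out for genes of like level. In the main fit, 35 chaperones had a mean of at least 30 CPM and 1 did not, against 5015 and 4839 of all genes. The 4 calls are therefore not shown to be particular to chaperones.

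The Hsp90 genes differed from each other. Hsp90ab1, the constitutive cytosolic Hsp90, had 1339, 849, 785, 857 and 619 CPM across Control and 886 and 788 CPM across Cre, with both Cre libraries inside the Control range (log2 fold change -0.10 ± 0.38, edgeR adjusted p = 0.958). Hsp90aa1, the inducible form, had 563, 243, 216, 186 and 84.2 CPM across Control and 365 and 11.04 CPM across Cre. Its Cre replicate 2 was again below every Control library and its Cre replicate 1 within them (log2 fold change -0.47 ± 0.98, edgeR adjusted p = 0.912). Both genes had counts in internal regions as well as at their 3′ UTR. For Hsp90aa1 the region over the 3′ UTR held 58.7, 62.0, 78.1, 76.6 and 17.8 CPM across Control and 173 and 2.07 CPM across Cre, and the fullest internal region, over coding sequence and intron, 324, 100.4, 83.6, 83.5 and 23.3 CPM across Control and 147 and 1.38 CPM across Cre. At the 3′ UTR alone Cre replicate 1 was therefore above every Control library, which it was not over the sum of regions. Transcripts of other genes, Gm12346 foremost, share 55.7% of the 50-base windows at the 3′ ends of Hsp90aa1.

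J proteins, which bring clients to Hsp70 and start its ATP cycle, included the cytosolic genes with the smallest p-values in each direction. Dnajb1, the main partner of inducible Hsp70, stood at 167, 161, 130.4, 125 and 81.1 CPM across Control and 419.7 and 218 CPM across Cre, so both Cre libraries were above all 5 Control libraries. Its Control mean was 133 ± 34.4 CPM (SD, n = 5) and its log2 fold change 1.26 ± 0.48 (SE), with an unadjusted p of 0.0227 and an adjusted p of 0.422 by edgeR. Either Cre library alone gave a positive value, 1.70 for replicate 1 and 0.72 for replicate 2. Dnaja1, which helps import proteins into mitochondria and matures receptors with Hsp70, stood at 233, 304, 127, 246 and 67.0 CPM across Control and 76.2 and 26.9 CPM across Cre. Cre replicate 2 was below every Control library and Cre replicate 1 was between the 2 lowest of them (log2 fold change -1.92 ± 0.76, edgeR adjusted p = 0.422). The 3′ region of Dnaja1 overlaps that of Smu1 on the opposite strand, and its 3′ ends share 39.7% of 50-base windows with other genes such as Gm7816. Dnaja2, a close relative of Dnaja1, had 158, 238, 124, 154 and 135 CPM across Control and 196 and 230.4 CPM across Cre, and Dnajb6, which suppresses protein aggregation, had 173, 290.3, 184, 146 and 153 CPM across Control and 304 and 209.7 CPM across Cre. Neither separated the groups (log2 fold change 0.40 ± 0.47, edgeR adjusted p = 0.803, and log2 fold change 0.45 ± 0.45, edgeR adjusted p = 0.749). Counts of Dnajb6 were spread over several regions, and in the one that held most of them the values were 145, 228, 141, 81.8 and 61.4 CPM across Control and 144 and 51.7 CPM across Cre, while an upstream region held 6.52, 0, 5.53, 30.7 and 1.84 CPM across Control and 92.2 and 109.7 CPM across Cre. The fitted sign of Dnajb6 turned with the region, to -0.43 when the fullest region stood for the gene.

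Of the co-chaperones, Bag3, an Hsp70 exchange factor of selective autophagy that Hsf1 induces, had 90.8, 64.0, 12.3, 77.1 and 33.2 CPM across Control and 182 and 23.5 CPM across Cre. Cre replicate 1 was above every Control library and Cre replicate 2 inside their range. Bag1, an exchange factor that links Hsp70 to the proteasome, had 68.8, 139, 67.6, 55.1 and 95.2 CPM across Control and 75.1 and 72.4 CPM across Cre, both Cre libraries inside the Control range. Stip1 (also Hop), which hands clients from Hsp70 to Hsp90, had 79.5, 109.8, 11.7, 30.2 and 49.8 CPM across Control and 17.6 and 0 CPM across Cre. Cre replicate 2 was at 0 and so at least 27.1-fold below the Control mean, and Cre replicate 1 was within the Control range. Hsf1, the transcription factor behind the heat shock response, had 12.5, 0, 0, 16.2 and 51.0 CPM across Control and 61.7 and 71.0 CPM across Cre, higher in both Cre libraries than in any Control library (log2 fold change 2.09 ± 1.76, edgeR adjusted p = 0.680). Control replicates 2 and 3 had no count of it. Its counted region overlaps on the opposite strand that of Dgat1, which had 348, 352, 745, 428 and 843 CPM across Control and 799.5 and 1195 CPM across Cre, with Cre replicate 1 inside the Control range and Cre replicate 2 above it. Whether counting used strand is not given in the sources used here. How much of Dgat1 is in the counts of Hsf1 was not tested.

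Summed over the 16 cytosolic genes, the level was 5275, 5675, 4439, 3612 and 2777 CPM across Control and 6386 and 2445 CPM across Cre. The Cre libraries enclosed the whole Control range, with replicate 1 above it and replicate 2 below it, so the group means differed little (4356 ± 1187 CPM, SD, n = 5, in Control). Of these genes 8 had a fitted value above 0 and 8 below, and their median log2 fold change was 0.01, beside -0.06 over all genes with a mean of at least 30 CPM, the level that all 16 reached. Immediate early genes, which tissue dissociation is known to raise, summed to 2733, 5453, 2646, 1841 and 2846 CPM across Control and 3292 and 2426 CPM across Cre. Control replicate 2 was highest both there and for Hspa1a and Hspa1b, and Cre replicate 1 was above Cre replicate 2 in all of them. Jun stood at 696, 1849, 777, 431 and 1014 CPM across Control and 1214 and 477 CPM across Cre and Fos at 43.3, 72.1, 11.7, 0 and 13.5 CPM across Control and 64.8 and 13.8 CPM across Cre, while Egr1, with 151, 139, 96.6, 189.6 and 146 CPM across Control and 86.5 and 243 CPM across Cre, had the opposite order in Cre. The part of dissociation in the chaperone levels was not tested.

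**Figure D2:**
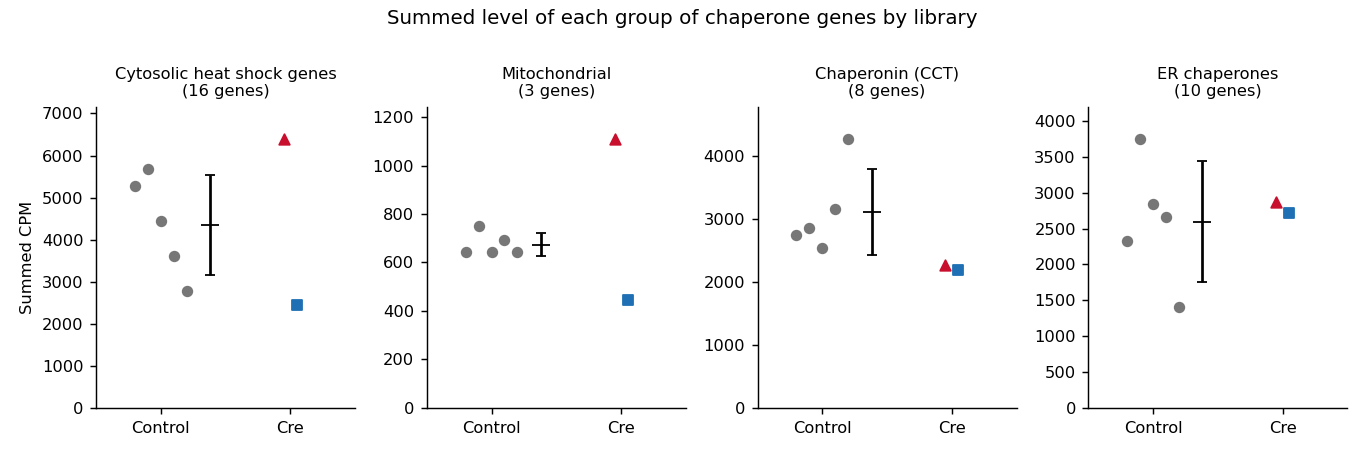
Summed CPM of each group of chaperone genes, with the 5 Control libraries as grey circles, their mean and SD as a black bar, Cre replicate 1 as a red triangle and Cre replicate 2 as a blue square. Cre replicates 1 and 2 lie on opposite sides of Control for the cytosolic and mitochondrial genes, both lie below Control for the chaperonin, and both lie inside the Control range for the ER genes.

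Of the mitochondrial genes, Hspe1 was nearly level over the Control libraries. Hspe1 (Hsp10), the lid of the mitochondrial chaperonin, stood at 467, 459, 486, 464 and 447 CPM across Control and 618 and 131 CPM across Cre. Scaled by library totals, the Control libraries had a coefficient of variation of 3.08% where counting alone predicts 3.63%. No other of the 9854 genes tested had a lower one, so this value is the extreme of many. The scaling factors of edgeR (TMM) ran from 0.928 to 1.06 over the Control libraries, and the spread with these factors was not worked out. Both Cre libraries lay outside the narrow Control range in CPM, on opposite sides (log2 fold change -0.29 ± 0.51, edgeR adjusted p = 0.893). Hspd1 (Hsp60), the barrel that Hsp10 closes and whose promoter it shares, had 125, 127, 99.6, 103 and 189.8 CPM across Control and 147 and 212 CPM across Cre. Here Cre replicate 2 was the highest library and Cre replicate 1 lay inside the Control range, so the gene pair did not follow the same order in Cre. Hspa9 (mortalin), the mitochondrial Hsp70 that pulls proteins through the import channel, had 48.6, 164, 57.2, 124 and 6.76 CPM across Control and 344 and 100.02 CPM across Cre. Cre replicate 1 was above every Control library (log2 fold change 1.48 ± 0.89, edgeR adjusted p = 0.474). Other genes, Hspd1-ps3 foremost, share 40.3% of the 50-base windows at the 3′ ends of Hspd1, and other genes share 14.9% of those of Hspe1. The 3 genes summed to 641, 749, 643, 691 and 644 CPM across Control and 1108 and 444 CPM across Cre.

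**Figure D3:**
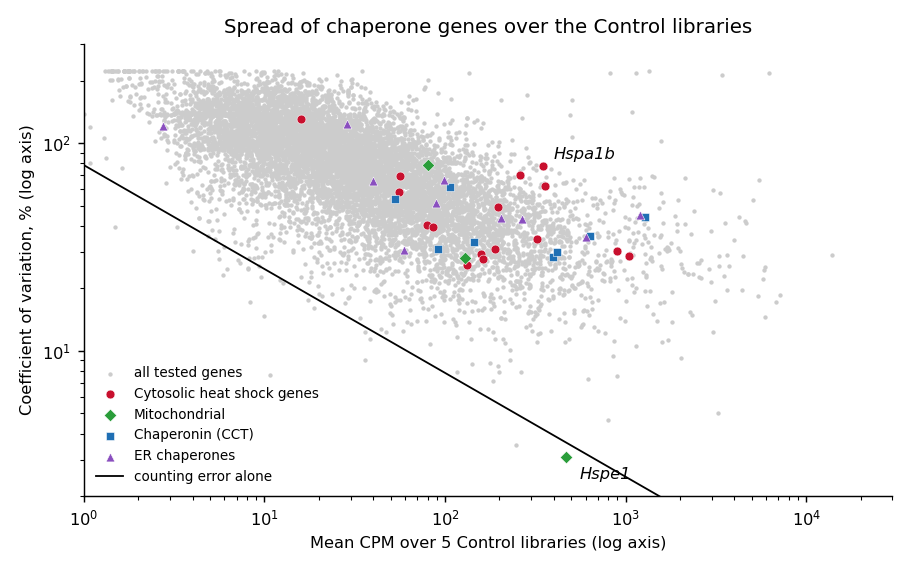
Coefficient of variation over the 5 Control libraries against mean CPM (both log axes) for all tested genes (grey) and the chaperone genes by group, with the line that counting error alone gives at the mean Control depth. Most chaperones lie well above the line within the cloud of genes of like level, Hspe1 lies just below it, and Hspa1b lies in the upper part of the cloud.

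Among Control libraries the chaperones had a spread near that of other genes of like level. The median coefficient of variation was 34.8% over the 24 chaperones with a mean of at least 100 CPM over the libraries of both groups and 39.0% over all 1888 genes at that level. Control replicate 5 was the lowest Control library for 15 of the 37 genes, among them 5 of 10 ER and 6 of 16 cytosolic genes, and Control replicate 2 was the highest for 13, of which 8 were cytosolic. The same counts were not made over all genes tested, so they are not shown to be particular to chaperones. Control replicate 5 also held the largest summed fibroblast level of the Control libraries, 793 CPM, and its part in these values was not tested.

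The chaperonin CCT was the one group whose summed level lay below the whole Control range in both Cre libraries. It is a double ring in which each ring holds one copy of each of its subunits, of which 8 were counted. Their sum was 2749, 2863, 2533, 3160.0 and 4265 CPM across Control and 2273 and 2185 CPM across Cre, or 3114 ± 682 CPM (SD, n = 5) against 2229 ± 62.7 CPM (SD, n = 2). Of the 8 subunits, 5 had a fitted value below 0, with a median log2 fold change of -0.51 beside -0.06 over all genes with a mean of at least 30 CPM, the level that all 8 reached, and none passed the test. In Cre replicate 1, 4 of 8 lay below every Control library and 1 above, beside 25.4% and 19.6% of all genes at that level. In Cre replicate 2, 5 lay below and 1 above, beside 32.4% and 23.1% of those genes.

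Cct4 was the subunit nearest to a call. It stood at 325, 317, 308, 497 and 544 CPM across Control and 209.9 and 103 CPM across Cre, so both Cre libraries were below all Control libraries. Its Control mean was 398 ± 113 CPM (SD, n = 5) and its log2 fold change -1.32 ± 0.47 (SE), with an unadjusted p of 0.0153 and an adjusted p of 0.399 by edgeR. The value was negative for either Cre library alone, -0.87 for replicate 1 and -1.93 for replicate 2. Its counts were in a region over the 3′ UTR (176, 195, 183, 259 and 260.5 CPM across Control, 136 and 49.0 CPM across Cre) and in one further upstream over coding sequence and intron (146, 122, 125, 238 and 279.5 CPM across Control, 73.1 and 53.8 CPM across Cre). Both Cre libraries were below every Control library in each of these regions.

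Tcp1 (the alpha subunit) had 130.5, 53.2, 91.0, 101 and 80.5 CPM across Control and 51.3 and 51.0 CPM across Cre. Both Cre values lay just under the lowest Control library, and the log2 fold change was -0.84 ± 0.77 (edgeR adjusted p = 0.715). Cct6a had 975, 1040.0, 883, 1209.7 and 2260.2 CPM across Control and 757 and 791 CPM across Cre, also below every Control library in both (log2 fold change -0.70 ± 0.39, edgeR adjusted p = 0.449). Most of the counts of Cct6a, 85.2%, came from a region of 249 bases (chr5:129791065-129791313, + strand, mm10) that lies in an intron of the full-length transcripts, directly past the annotated end of a shorter transcript with a retained intron, and holds no annotated exon base in GENCODE M21. That region held 792, 720.0, 638, 1029 and 2104 CPM across Control and 668 and 791 CPM across Cre, with Control replicate 5 far above the rest. The regions at the 3′ end of the gene held 182, 319.9, 245, 181 and 156 CPM across Control and 89.1 and 0 CPM across Cre. At the 3′ end both Cre libraries were below every Control library, and Cre replicate 2 had no count, whereas in the intronic region both Cre libraries were inside the Control range.

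**Figure D4:**
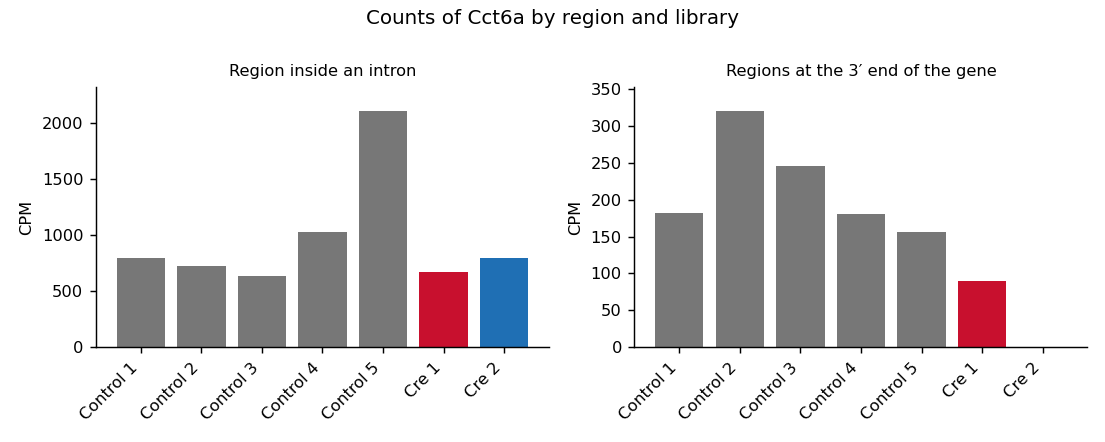
CPM of Cct6a in each library in the intronic region (left) and summed over the 2 counted regions at the 3′ end of the gene (right), bars in grey for Control, red for Cre replicate 1 and blue for Cre replicate 2, each panel with its own axis from 0. In the intronic region Control replicate 5 reaches 2104 CPM and both Cre libraries stand among the remaining Control libraries, while at the 3′ end Cre replicate 1 has 89.1 CPM and Cre replicate 2 has none.

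Without the intronic region of Cct6a, a choice made after its values were seen, the chaperonin sum was 1956, 2143, 1895, 2131 and 2161 CPM across Control and 1605 and 1393 CPM across Cre. The Control libraries then lay close together, at 2057 ± 123 CPM (SD, n = 5), and both Cre libraries were below them, at 1499 ± 149.8 CPM (SD, n = 2). No test was made of this sum, since the genes were chosen with results of these data known.

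The remaining subunits had no common order. Cct2 had 133, 121, 224, 143 and 98.3 CPM across Control and 119 and 0 CPM across Cre, with Cre replicate 1 within the Control range. By counting error alone, its 0 counts in Cre replicate 2 make it at least 69.5-fold lower there than the Control mean. Cct3 had 37.4, 119, 136, 194 and 45.5 CPM across Control and 234 and 15.9 CPM across Cre, and Cct5 had 84.2, 17.5, 36.3, 46.4 and 78.6 CPM across Control and 1.55 and 108 CPM across Cre. These stood in opposite order in Cre, since replicate 1 was above and replicate 2 below every Control library for Cct3 and the reverse held for Cct5. Cct7 had 516, 443, 539, 341 and 241 CPM across Control and 409 and 257 CPM across Cre, and Cct8 had 548, 752, 316, 628 and 916 CPM across Control and 492 and 857 CPM across Cre. Both Cre libraries were inside the Control range for these 2 subunits (log2 fold change -0.32 ± 0.44, edgeR adjusted p = 0.846, and log2 fold change 0.10 ± 0.42, edgeR adjusted p = 0.959). Cct8 was counted in 3 main regions, and in the one over its 3′ UTR the values were 313, 374, 239, 304 and 348 CPM across Control and 239.9 and 166 CPM across Cre, with Cre replicate 1 level with the lowest Control library and Cre replicate 2 below all of them. That region overlaps one of Usp16 on the opposite strand. The remaining regions, further upstream over coding sequence and intron, held the counts that put the sum of Cct8 inside the Control range.

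**Figure D5:**
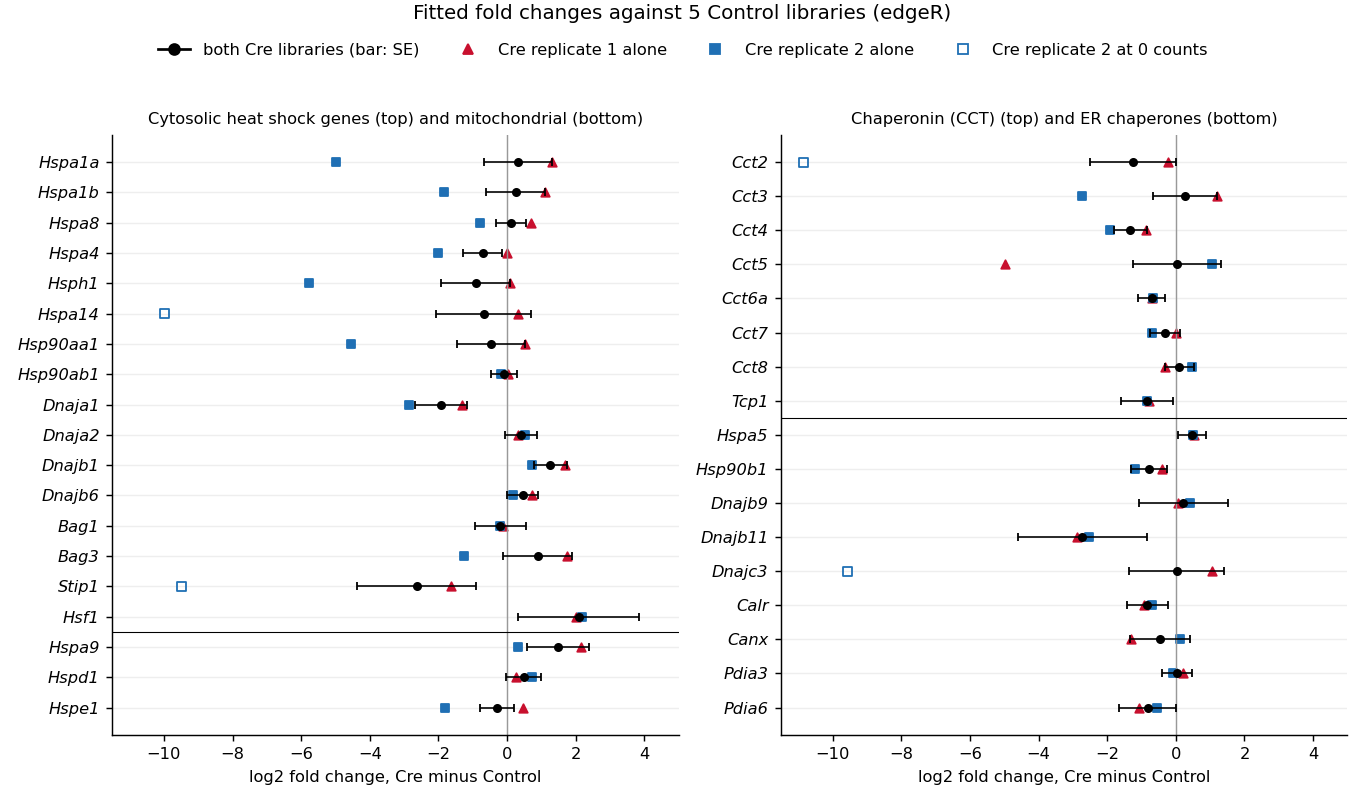
Fitted log2 fold change (Cre minus Control, edgeR) of the 36 tested chaperone genes, with both Cre libraries in the fit (black, bars are SE), Cre replicate 1 as the only Cre library (red triangles) and Cre replicate 2 as the only one (blue squares, open where that library had 0 counts, so that the position depends on the prior count). The red and blue points lie close together for Dnaja2, Hsf1, Tcp1, Cct6a, Hspa5 and Calr and far apart for Hspa1a, Cct2, Cct5 and Dnajc3.

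As a group, the ER genes were inside the Control range in both Cre libraries. None of the 10 lay outside the Control range on the same side in both Cre libraries, and their sum was 2328, 3745, 2836, 2655 and 1414 CPM across Control and 2871 and 2715 CPM across Cre. Hspa5 (BiP), the ER Hsp70 and sensor partner of the unfolded protein response, stood at 988, 2038, 1166, 1279.9 and 553 CPM across Control and 1664 and 1681 CPM across Cre. The Cre values were nearly equal and lay between the 2 highest Control libraries (log2 fold change 0.47 ± 0.42, edgeR adjusted p = 0.697). Hsp90b1 (Grp94), which folds integrins and Toll-like receptors, had 119, 406, 357, 202 and 256 CPM across Control and 192 and 115 CPM across Cre and so was below the Control range in Cre replicate 2 (log2 fold change -0.78 ± 0.53, edgeR adjusted p = 0.558). Both genes hold the ER stress element, and their fitted values had opposite signs.

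The ER has its own J proteins. Dnajb9, which turns Hspa5 back onto the stress sensor Ern1, had 38.0, 1.35, 75.6, 46.4 and 39.3 CPM across Control and 40.4 and 52.4 CPM across Cre, and Dnajb11, a J protein for secreted clients, had 12.5, 4.71, 91.6, 12.8 and 22.1 CPM across Control and 3.63 and 4.83 CPM across Cre. Dnajb9 did not separate the groups, and Cre values of Dnajb11 were near the lowest Control library, with Control replicate 3 far above the others (log2 fold change -2.72 ± 1.87, edgeR adjusted p = 0.561). Dnajc3 (p58IPK), a J protein that also restrains translational arrest, had 55.2, 68.0, 65.8, 77.7 and 30.1 CPM across Control and 119 and 0 CPM across Cre. Its 0 counts in Cre replicate 2 make it at least 28.7-fold lower there than the Control mean, and in Cre replicate 1 it was above every Control library.

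The lectin chaperones of glycoprotein folding, Calr and Canx, lay inside the Control range in both Cre libraries. Calr, which is soluble, had 215, 325, 212, 199 and 73.1 CPM across Control and 104 and 127 CPM across Cre, and Canx, which spans the membrane, had 126, 69.4, 196, 75.4 and 24.6 CPM across Control and 38.9 and 106 CPM across Cre. Their log2 fold changes were -0.83 ± 0.60 and -0.46 ± 0.87, with edgeR adjusted p-values of 0.587 and 0.904. Pdia3, the disulfide isomerase that works with both lectins, had 727, 777, 558, 683 and 250.04 CPM across Control and 668 and 569.8 CPM across Cre, with no separation (log2 fold change 0.04 ± 0.44, edgeR adjusted p = 0.983). Pdia6, another disulfide isomerase, had 46.9, 52.5, 110.1, 77.7 and 157 CPM across Control and 39.9 and 59.3 CPM across Cre, so Cre replicate 1 was below every Control library and Cre replicate 2 was inside the range. Pdia4, of the same family, had between 0 and 13 counts in any library and did not enter the test.

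Other genes of the same pathways, from lists chosen with earlier results of these data known, also gave no edgeR call. Of 21 tested cytosolic partners, 9 had a fitted value above 0 and 12 below. Hsf2, a second heat shock factor, had 20.2, 0.674, 28.9, 96.3 and 46.7 CPM across Control and 0 and 0 CPM across Cre, and 0 counts in both Cre libraries make it at least 43.4-fold lower than the Control mean (3 counts over the group as the limit), with an edgeR adjusted p of 0.367 and a DESeq2 adjusted p of 0.00452. Control replicate 2 held 0.674 CPM of Hsf2, which is under the limit that 0 counts allow in either Cre library (1.55 and 2.07 CPM), so Cre was not shown to be below that library. Both Cre libraries were above every Control library for Hspb11, a small chaperone-like protein of cilia with 3.56, 0, 0.615, 0 and 0 CPM across Control and 39.9 and 33.1 CPM across Cre (edgeR adjusted p = 0.422). Fkbp5, an Hsp90 partner that glucocorticoids induce, had 40.9, 35.0, 6.15, 23.8 and 51.6 CPM across Control and 34.7 and 172 CPM across Cre (edgeR adjusted p = 0.492). Of 7 tested prefoldin and phosducin-like genes, which deliver or regulate chaperonin clients, 4 were fitted above and 3 below 0. Pfdn5, a prefoldin subunit, had 346, 346, 745, 488 and 549.8 CPM across Control and 725 and 883 CPM across Cre (log2 fold change 0.71 ± 0.37, edgeR adjusted p = 0.429), and Pfdn6 had 104, 24.2, 36.3, 175 and 168 CPM across Control and 101 and 2.07 CPM across Cre (edgeR adjusted p = 0.831). Pdcl3, a phosducin-like chaperonin partner, had no count in either Cre library and 1.16 to 15.4 CPM in Control. That is at least 7.39-fold below the Control mean, and it missed the edgeR threshold (adjusted p = 0.427). Its lowest Control library, replicate 4, was under the limit that 0 counts allow in either Cre library, so Cre was not shown to be below that library. The sum of the prefoldin and phosducin-like genes, 588, 526, 873, 756 and 809.7 CPM across Control and 994 and 1026 CPM across Cre, was above every Control library in both Cre libraries. Pfdn5 made up most of it, and without Pfdn5, a choice made after seeing the data, the sum was 242, 179.8, 128, 268 and 259.9 CPM across Control and 269 and 143 CPM across Cre, with Cre replicate 2 inside the Control range and Cre replicate 1 level with its highest library.

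Of 11 further mitochondrial chaperones and proteases, 4 were fitted above and 7 below 0. Dnaja3, the J protein of Hspa9, had 10.1, 4.04, 9.22, 22.6 and 3.07 CPM across Control and 0 and 0 CPM across Cre, and its Cre libraries at 0 were at least 11.05-fold below the Control mean (edgeR adjusted p = 0.422). Clpx, the unfoldase of a matrix protease, had 2.97, 0, 0, 20.3 and 0 CPM across Control and 102 and 58.6 CPM across Cre, and Yme1l1, an inner membrane protease, had 80.7, 58.6, 59.7, 29.6 and 82.9 CPM across Control and 16.6 and 3.45 CPM across Cre. Cre was above Control in both libraries for Clpx and below in both for Yme1l1, with edgeR adjusted p-values of 0.429 and 0.429.

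Of 19 further ER folding and degradation genes tested, 7 were fitted above and 12 below 0, and DESeq2 called 1 in each direction. Sel1l, the scaffold of the ER degradation ligase, was the one called lower by DESeq2, with 56.4, 166, 97.2, 116 and 107 CPM across Control and 0 and 8.28 CPM across Cre (log2 fold change -4.72 ± 1.41, edgeR adjusted p = 0.367, DESeq2 adjusted p = 0.00111). Sil1, the exchange factor of Hspa5, was the one called higher, with 20.2, 1.35, 0, 4.64 and 0.614 CPM across Control and 23.3 and 296 CPM across Cre (log2 fold change 4.78 ± 1.56, edgeR adjusted p = 0.367, DESeq2 adjusted p = 0.0219). The value of Sil1 came from Cre replicate 2, since Cre replicate 1 was only slightly above the highest Control library. Txndc5, an ER disulfide isomerase, had no count in either Cre library nor in Control replicate 4 (edgeR adjusted p = 0.427). Of 9 tested regulators of the unfolded protein response, 5 were fitted above and 4 below 0. Atf4, the transcription factor of its PERK arm, had 466, 377, 224, 98.0 and 265 CPM across Control and 679 and 481 CPM across Cre, above every Control library in both Cre libraries (log2 fold change 1.02 ± 0.52, edgeR adjusted p = 0.429). Eif2ak3, which is PERK itself, and Trib3, a target of that arm, had no count in either Cre library and 0 to 55.3 and 0.614 to 45.8 CPM in Control, with edgeR adjusted p-values of 0.427 and 0.427.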

How the data were processed

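Sorted intratumoral CD4 T cells were profiled by 3′ UTR RNA-seq in 5 Control and 2 Cre libraries, grouped by their titles. The deposited counts are whole numbers per 3′ region for 116000 regions of 55364 genes, per the file headers. HISAT2 2.1.0, FastQC 0.11.8, DESeq2 and the build mm10 stand in the submitters' processing notes. Which tool counted the regions, whether it used strand and from which annotation is not given in the sources used here. A comparison of Cre with Control was deposited by the authors as a p-value and FDR per gene, a ratio (fold) of normalized values and a log2 fold change, with GC content as a percent, and only the log2 values, the p-value columns and the GC percent were copied from that deposited table. No column of per-sample values was left unused (0).

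Regions were summed per gene, and CPM is a gene's counts over the library's total. The test was edgeR 4.0.16's quasi-likelihood F-test in R 4.3.3 (TMM, robust, filterByExpr with minimum count 10 and minimum total 15, group only, two-sided) over 9854 genes, with Benjamini-Hochberg adjustment at 0.05. SE was taken from the F statistic. Alternatives were DESeq2 1.42.0, limma voom 3.58.1, other size factors and filters, the fullest region of each gene, the replicate number as a block, TMM-scaled or ribosomal-free totals for sums, and each library left out. A count of 0 allows up to 3 counts. Such limits take in counting error alone, because without molecular identifiers several reads can stem from 1 molecule, and p-values measure the spread between these libraries. No library pair agreed within sampling noise. The titles number the libraries but name no pairs, and the main test used none.

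The 37 genes and the other lists were chosen with earlier results of these data known. All 37 genes are named, with the 3 genes of smallest edgeR p of each other pathway list and Fos, Jun and Egr1, and genes that cell markers or strand overlaps concern are named beside them after their values were seen. Promoter windows are RefSeq's, regions were placed with GENCODE M21, and coordinates count from 1.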

Additional observations from a re-analysis of the deposited data

Results flagged for a closer look

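Among 41 levels checked in the 5 Control libraries (37 genes and 4 group sums), 3 had a library whose gap to its neighbour took up more than 0.71 of the group's whole range, the limit that chance passes in about 1 of 20 groups. Dnajb6, a J protein, stood at 290.3 CPM in Control replicate 2, with the next library at 184 CPM. Cct6a, a chaperonin subunit, stood at 2260.2 CPM in Control replicate 5, with the next at 1209.7 CPM, and the excess lay in its intronic region. Dnajb11, an ER J protein, stood at 91.6 CPM in Control replicate 3, with the next at 22.1 CPM.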

How the results depend on the processing

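No chaperone gene was called in any alternative other than without Cre replicate 1, where 4 were called lower, so the count with 1 library left out ran from 0 to 4. Over the whole table, genes called higher numbered 15 with no filter on low counts, 35 by DESeq2, 3 by limma voom and 0 to 17 with 1 library left out, and genes called lower numbered 28, 607, 0 and 1 to 202 (the highest of both without Cre replicate 1). The replicate number as a block gave 5 lower and no chaperone. Control replicates 3, 4 and 5 have no Cre library of the same number, so with the block the group difference rests on replicates 1 and 2. Same-numbered libraries did not deviate together (correlations 0.0036 and 0.0023), which with 2 Cre libraries cannot exclude a pairing. The median log2 fold change of all genes tested, -0.39, became -0.29 with DESeq2 size factors or by DESeq2, -0.49 with upper-quartile factors, -1.32 with no filter, -0.12 with the stricter filter, -0.95 with the block, -0.75 by voom and -0.39 with the fullest regions, and that of the chaperones, -0.15, became -0.04, -0.25, -0.10, -0.08, -0.59, -0.49 and -0.37 in the same order. Without Cre replicate 1 these medians were -2.40 and -0.79, without Cre replicate 2 they were -1.22 and 0.06, and with 1 Control library left out they ran from -0.34 to -0.26 and from -0.20 to 0.06.

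Signs of the log2 fold change held in all alternatives for 17 of 36 chaperones. With the block they turned for Hspa1a -2.27, Hspa1b -0.85, Hspa8 -0.38, Bag3 -0.25, Cct3 -0.15, Cct5 -1.44, Cct8 -0.026, Dnajc3 -2.86 and Pdia3 -0.33. With voom they turned for Hspa1a -1.28, Cct3 -0.27, Cct5 -1.95 and Dnajc3 -2.99, and with upper-quartile factors for Hspa8 -0.0078, Cct5 -0.033, Dnajc3 -0.12 and Pdia3 -0.072. DESeq2 and its size factors gave Hsp90ab1 0.024, and the fullest region gave Dnajb6 -0.43, Cct5 -0.018 and Cct8 -0.66. With 1 library left out the ranges that crossed 0 were Hspa1a -4.99 to 1.32, Hspa1b -1.84 to 1.09, Hspa8 -0.79 to 0.70, Hsph1 -5.78 to 0.082, Hspa14 -9.98 to 0.33, Hsp90aa1 -4.56 to 0.51, Hsp90ab1 -0.21 to 0.16, Bag1 -0.31 to 0.050, Bag3 -1.25 to 1.74, Hspe1 -1.81 to 0.46, Cct3 -2.72 to 1.19, Cct5 -4.98 to 1.04, Cct7 -0.69 to 0.016, Cct8 -0.30 to 0.46, Dnajb9 -0.099 to 0.60, Dnajc3 -9.58 to 1.04, Canx -1.30 to 0.11 and Pdia3 -0.15 to 0.20. The Cre mean minus the Control mean of the summed level ran from -1910.3 to 2030.2 CPM for cytosolic and from -230.2 to 435 CPM for mitochondrial genes, the lowest without Cre replicate 1 and the highest without Cre replicate 2. Without Pfdn5 the difference of the prefoldin and phosducin-like sum turned to -9.31 CPM. The cause was not tested. A gene with no count may still hold up to 1.55 CPM in Cre replicate 1 and 2.07 CPM in Cre replicate 2.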
